A study of Mus musculus with 18 samples.

Results

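The 29 genes described here mark microglia, the resident macrophages of the brain, and leukocytes in general. They were taken from a list of gene symbols, each gene was read at the probe annotated to it with the highest mean over all 18 arrays, and all 29 had a probe among the 19057 genes that the array annotation names by a single symbol. The rule uses no measured difference between groups, and 47 of the 45281 probes belonged to the 29 genes. By role the members are the complement C1q chains C1qa, C1qb and C1qc; the surface receptors of microglia Csf1r, Trem2, P2ry12, Tmem119 and Fcrls; the immunoreceptor adaptors and Fc receptor Tyrobp, Fcer1g and Fcgr3; the general leukocyte genes Ptprc, Itgam, Cd53, Cd52 and Laptm5; the actin-associated Aif1, Coro1a and Lcp1; Cd14, Ly86, Tlr7 and Unc93b1 of the Toll-like receptor system; Ctss, Ctsz and Mpeg1 of the lysosome and phagosome; Cyba and Cybb of the NADPH oxidase; and the transcription factor Irf8.

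The arrays, Illumina MouseWG-6 v2, were hybridised with RNA of 2 medulloblastomas (MBs) and of granule neuron progenitors (GNPs), which proliferate in the early postnatal cerebellum and can give rise to MB of the Sonic hedgehog type. GNPs were taken at postnatal day 6 from wild-type, Ptch+/-, NdpKO and NdpKO;Ptch+/- mice, with 4 arrays per genotype, and were enriched from the cerebellum by a Percoll gradient and pre-plating. Ptch+/- mice lack 1 allele of the hedgehog receptor gene Ptch1, and NdpKO mice carry a germ-line disruption of Ndp, the X-linked gene for the Frizzled4 ligand Norrin. The MBs were Ptch+/- and NdpKO;Ptch+/- in genotype, numbered 1 per genotype, and carried the same age label as the GNPs, although the study describes tumours of symptomatic mice in its other assays; the enrichment is described for GNPs alone. The strain was labelled C57Bl/6 for wild-type and Ptch+/- GNPs and mixed for NdpKO GNPs, and the NdpKO;Ptch+/- GNPs carried no strain label, so that strain and Ndp genotype cannot be told apart. By the study's breeding scheme every mouse without Ndp was a male and the controls were of either sex, so that sex and Ndp genotype cannot be told apart either; the methods also state that compound mutants and their controls came from 1 breeding cohort. The titles place replicate 2 of NdpKO;Ptch+/- in that group, although its source and genotype labels give Ndp knockout alone. Every array had a median of 4.13 on the log2 scale, 76.1% of all probes had a GNP mean below 5, and level 5 is used here as the limit near background. In a mixed cell preparation, fewer cells of a type and less RNA per cell cannot be told apart.

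Microglia derive from yolk sac progenitors and depend on signalling through Csf1r, with Irf8 as a transcription factor of the lineage. C1q chains assemble into the recognition molecule of the classical complement pathway, which in the brain is made mainly by microglia and tags synapses and debris for removal. Trem2 and many Fc receptors lack signalling motifs of their own and pass their signal through the adaptors encoded by Tyrobp and Fcer1g. P2ry12, Tmem119 and Fcrls are known for their high expression in microglia of the healthy brain, whereas Ptprc (CD45) and Itgam (CD11b) are used to sort leukocytes and myeloid cells.

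To show the DNA that lies upstream of the members with the most pronounced values, the bases directly before the annotated start of 5 genes are given: Fcer1g, C1qc, Trem2 and C1qb had the 4 largest differences between tumours and GNPs, and Ly86 was the member called in the test across all GNP genotypes. The sequences are from RefSeq on GRCm38.p6 and are printed 5′ to 3′ on the strand of the gene, with any match to GAGGAA or to its reverse complement TTCCTC in capitals. These letters are a core of the sites bound by ETS factors such as PU.1. The windows are chr1:171234350-171234599 on the minus strand for Fcer1g, chr4:136892937-136893164 on the minus strand for C1qc, chr17:48346151-48346400 on the plus strand for Trem2, chr4:136886201-136886450 on the minus strand for C1qb and chr13:37345095-37345344 on the plus strand for Ly86; they hold 250 bases except for C1qc, where 228 bases lie outside the annotated gene.
Fcer1g: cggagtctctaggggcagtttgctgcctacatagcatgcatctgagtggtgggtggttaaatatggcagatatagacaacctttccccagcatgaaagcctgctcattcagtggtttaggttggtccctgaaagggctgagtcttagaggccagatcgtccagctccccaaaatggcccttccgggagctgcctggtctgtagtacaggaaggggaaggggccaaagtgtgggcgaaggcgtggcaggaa
C1qc: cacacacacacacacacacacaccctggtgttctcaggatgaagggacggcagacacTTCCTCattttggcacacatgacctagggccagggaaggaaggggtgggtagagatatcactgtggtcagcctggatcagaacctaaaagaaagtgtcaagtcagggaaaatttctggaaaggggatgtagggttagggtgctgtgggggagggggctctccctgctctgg
Trem2: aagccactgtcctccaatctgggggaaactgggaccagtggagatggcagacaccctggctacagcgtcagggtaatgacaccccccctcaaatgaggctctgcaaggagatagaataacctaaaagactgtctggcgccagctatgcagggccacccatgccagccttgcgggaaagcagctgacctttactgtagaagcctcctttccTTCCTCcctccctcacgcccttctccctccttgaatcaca
C1qb: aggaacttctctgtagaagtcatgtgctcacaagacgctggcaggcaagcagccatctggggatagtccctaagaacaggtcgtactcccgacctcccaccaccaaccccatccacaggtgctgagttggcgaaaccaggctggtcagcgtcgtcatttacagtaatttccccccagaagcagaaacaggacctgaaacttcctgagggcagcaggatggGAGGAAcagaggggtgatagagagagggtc
Ly86: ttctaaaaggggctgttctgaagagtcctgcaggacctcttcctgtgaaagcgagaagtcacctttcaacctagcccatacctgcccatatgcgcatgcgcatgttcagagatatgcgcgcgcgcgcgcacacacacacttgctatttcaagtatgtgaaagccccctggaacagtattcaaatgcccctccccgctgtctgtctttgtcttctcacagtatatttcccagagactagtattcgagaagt
Counted back from the end of the printed stretch, a match began 171 bases away in C1qc, 40 in Trem2 and 30 in C1qb, and none stood in the stretches of Fcer1g and Ly86. Of the 21 members with a window in the RefSeq table, 11 held a match within 250 bases, namely C1qb, C1qc, Trem2, Fcrls, Fcgr3, Ptprc, Itgam, Cd53, Laptm5, Aif1 and Ctss. Counted by window, 12 of the 26 windows of these members held the letters, against 23.3% of all 32851 windows of that length, a match is no measure of binding, and the windows without a match say nothing about the factor.

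The members fell into distinct levels. In GNPs, 9 of the 29 had a mean of at least 5 in at least 1 genotype: C1qb, C1qc, Fcrls, Fcer1g, Laptm5, Coro1a, Ly86, Ctsz and Cyba. Another 9 had a group mean or tumour value at that level only in a tumour: C1qa, Csf1r, Trem2, Tyrobp, Fcgr3, Cd52, Aif1, Unc93b1 and Mpeg1. Cd14, the co-receptor for lipopolysaccharide, had no group mean above the level and exceeded it on a single array, wild-type replicate 4, at 5.85. The remaining 10 lay below 5 on all 18 arrays, and these include the defining markers Ptprc (4.10 to 4.13), Itgam (4.10 to 4.13), P2ry12 (4.12 to 4.20) and Tmem119 (4.11 to 4.16), as well as Cd53 (4.11 to 4.26), the actin-bundling gene Lcp1 (4.14 to 4.29), the RNA sensor Tlr7 (4.11 to 4.20), the protease gene Ctss (4.12 to 4.27), the oxidase subunit gene Cybb (4.10 to 4.12) and Irf8 (4.11 to 4.20). The label of the list as microglia and leukocyte markers was thus carried in these arrays by a part of its genes, and its 2 general sorting markers were not measured above background in any sample.

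Within wild-type GNPs replicate 4 held the highest value for 20 of the 29 members, and for 6 of the 8 members whose mean over all GNP arrays was at least 5. Results are therefore also given without that array where a call rests on it.

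The question of whether GNPs differ in these genes when a Ptch1 allele, Ndp or both are lost was addressed against wild type first. The 3 comparisons share the 4 wild-type arrays. Ly86, which encodes the MD-1 partner of the Toll-like receptor homologue RP105, fell in all of them, and Fcrls fell in NdpKO GNPs, whereas no member rose. In Ptch+/- GNPs 1 of 29 members was called lower, with 0.499% of all probes called lower, and in 4 of 29 every Ptch+/- array lay below every wild-type array (C1qb, Cd14, Ly86 and Cyba), against 4.48% of all probes. In NdpKO GNPs 2 of 29 were called lower, against 0.155% of all probes, and 12 of 29 lay wholly below wild type, against 2.57% of all probes. In NdpKO;Ptch+/- GNPs 1 of 29 was called lower, against 0.0331% of all probes, and 10 of 29 lay wholly below wild type, against 1.80% of all probes.

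The 12 members without overlap in NdpKO were C1qb, C1qc, Csf1r, Trem2, Fcrls, Tyrobp, Fcgr3, Laptm5, Cd14, Ly86, Mpeg1 and Cyba. The 10 in NdpKO;Ptch+/- were C1qb, C1qc, Trem2, Fcrls, Tyrobp, Fcgr3, Aif1, Cd14, Ly86 and Mpeg1. Of these genes Csf1r, Trem2, Tyrobp, Fcgr3, Aif1, Cd14 and Mpeg1 had wild-type means below 5, so that both sides of their comparisons lay near background. The difference was negative for 27 of 29 members in Ptch+/-, for 24 in NdpKO GNPs and for 22 in NdpKO;Ptch+/-, and its median over the members was -0.06, -0.11 and -0.14 in that order, where the median over all probes was 0.00 in each. After centring each array on the granule neuron lineage genes the medians were -0.45, -0.37 and -0.10. That scaling shifts every probe of an array alike, also those at background. With it 28 members were called in Ptch+/- and 6 in NdpKO GNPs, and the 28 include members at background. The share of all probes called with it was not computed, so these counts are no result about the members. At an unadjusted p below 0.05 stood 10 members in Ptch+/-, 13 in NdpKO GNPs and 12 in NdpKO;Ptch+/-, where 13.2%, 10.9% and 6.95% of all probes did. The test for any difference among the 4 genotypes called Ly86 alone among the 29 (adjusted p = 0.0357), where 0.221% of all probes were called. That call was lost without wild-type replicate 1 (adjusted p = 0.117) and with a term for the replicate number (adjusted p = 0.0749). It was also lost without replicate 1, 2 or 3 of Ptch+/- or NdpKO, or replicate 2, 3 or 4 of NdpKO;Ptch+/- (adjusted p from 0.0590 to 0.0735).

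**Figure D1:**
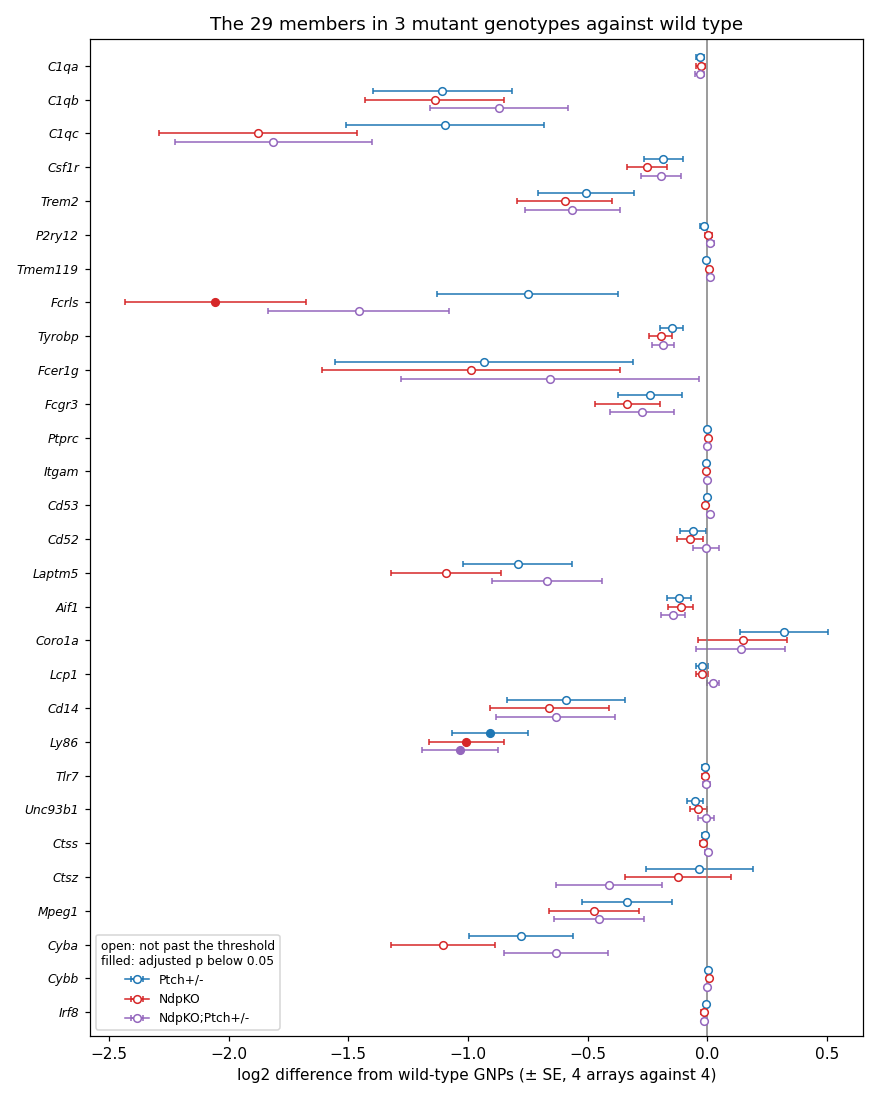
Log2 difference from wild-type GNPs (x axis) for each of the 29 members (y axis), with Ptch+/- in blue, NdpKO in red and NdpKO;Ptch+/- in violet; points are fitted differences of 4 arrays against 4, bars are ± SE and filled points have an adjusted p below 0.05. Only Ly86 in the 3 genotypes and Fcrls in NdpKO are filled, the points of C1qb, C1qc, Fcrls, Fcer1g, Laptm5 and Cyba lie to the left of 0 in the 3 genotypes and those of Coro1a to the right.

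Among the C1q chains, C1qb was measured at 7.71, 7.69, 7.57 and 8.50 on the 4 wild-type arrays. It was measured at 6.41, 6.94, 6.47 and 7.23 in Ptch+/-, 6.00, 6.94, 6.83 and 7.14 in NdpKO GNPs and 6.63, 7.46, 6.90 and 7.00 in NdpKO;Ptch+/- GNPs. Every mutant array lay below every wild-type array. The log2 differences were -1.11 ± 0.29 (adjusted p = 0.0929), -1.14 ± 0.29 (adjusted p = 0.138) and -0.87 ± 0.29 (adjusted p = 0.502) respectively, none past the threshold, and corresponded to levels 2.15-fold, 2.2-fold and 1.83-fold below wild type. C1qc was measured at 6.88, 6.64, 6.52 and 7.66 in wild-type, 5.24, 6.28, 5.01 and 6.80 in Ptch+/-, 4.39, 5.24, 5.26 and 5.29 in NdpKO GNPs and 4.62, 5.66, 5.45 and 4.73 in NdpKO;Ptch+/- GNPs. Its Ptch+/- arrays overlapped wild type, and the arrays of both genotypes without Ndp did not. The differences were -1.10 ± 0.41 (adjusted p = 0.258), -1.88 ± 0.41 (adjusted p = 0.0903) and -1.81 ± 0.41 (adjusted p = 0.217), none of which passed. C1qa ranged from 4.12 to 4.21 on all 16 GNP arrays.

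Of the surface receptors, Fcrls, a scavenger receptor-like gene of mouse microglia, showed the largest difference of any member among GNPs. Its values were 8.17, 7.85, 8.20 and 9.31 in wild-type, 6.73, 7.99, 7.32 and 8.48 in Ptch+/-, 5.77, 6.55, 6.33 and 6.64 in NdpKO GNPs and 6.64, 7.13, 7.16 and 6.78 in NdpKO;Ptch+/- GNPs. All NdpKO and NdpKO;Ptch+/- arrays lay below wild type, and Ptch+/- arrays overlapped it. In NdpKO it fell by 2.06 ± 0.38 on the log2 scale (adjusted p = 0.0469), a level 4.16-fold below wild type, and the differences in Ptch+/- of -0.75 ± 0.38 (adjusted p = 0.437) and in NdpKO;Ptch+/- of -1.46 ± 0.38 (adjusted p = 0.331) did not pass. The NdpKO call held when Ptch+/- replicate 1, Ptch+/- replicate 4 or NdpKO replicate 4 was left out, and was lost without any other single GNP array, with adjusted p from 0.0518 to 0.164 (0.0631 and a difference of -1.75 without wild-type replicate 4). It was also lost when the array whose labels disagree was counted as NdpKO (-1.90, adjusted p = 0.0826), with array weights (adjusted p = 0.0684) and with only the 2 groups fitted (adjusted p = 0.230). A dimmer probe for the same gene (ILMN_2831436) averaged 5.94 in wild-type, 4.50 in Ptch+/-, 4.31 in NdpKO GNPs and 4.38 in NdpKO;Ptch+/- GNPs. At that probe the gene fell in all 3 genotypes against wild type, with differences of -1.45 in Ptch+/- (adjusted p = 0.00373), -1.63 in NdpKO (adjusted p = 0.00337) and -1.56 in NdpKO;Ptch+/- (adjusted p = 0.00458), and its interaction of 1.52 passed as well (adjusted p = 0.0323). The mutant means at this probe lie below level 5, so that a further fall with Ndp loss could not be measured in Ptch+/- GNPs. The remaining Fcrls probe was at background on every array. Csf1r, the receptor on which microglial survival depends, ranged from 4.26 to 4.77 in GNPs. Trem2, a lipid-sensing receptor, was measured at 4.43, 4.39, 4.73 and 5.61 in wild type and reached at most 4.42 on any mutant array, with differences of -0.51 ± 0.20 (adjusted p = 0.282), -0.60 ± 0.20 (adjusted p = 0.26) and -0.56 ± 0.20 (adjusted p = 0.544), all within the background range apart from wild-type replicate 4.

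Among the adaptors, Fcer1g, the gamma chain shared by Fc receptors, varied widely between arrays of a genotype. It was measured at 5.31, 4.75, 5.60 and 7.02 in wild-type, 4.33, 4.99, 4.57 and 5.06 in Ptch+/-, 4.20, 4.24, 4.18 and 6.11 in NdpKO GNPs and 4.32, 6.70, 4.77 and 4.26 in NdpKO;Ptch+/- GNPs. The groups overlapped, and a single array stood high in both NdpKO and NdpKO;Ptch+/-. In NdpKO;Ptch+/- this was replicate 2, the array whose labels disagree. The differences from wild type of -0.93 ± 0.62 (adjusted p = 0.606), -0.99 ± 0.62 (adjusted p = 0.633) and -0.66 ± 0.62 (adjusted p = 0.927) did not pass. Tyrobp, the adaptor of Trem2, ranged from 4.10 to 4.48 and Fcgr3, a low-affinity receptor for IgG, from 4.12 to 5.02 on the GNP arrays.

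Laptm5, a lysosomal membrane protein of haematopoietic cells, was the general leukocyte gene measured in GNPs. Its values were 9.70, 9.18, 9.81 and 9.87 in wild-type, 8.45, 8.88, 8.76 and 9.29 in Ptch+/-, 8.17, 8.74, 8.45 and 8.83 in NdpKO GNPs and 8.45, 9.12, 9.29 and 9.02 in NdpKO;Ptch+/- GNPs. NdpKO arrays all lay below wild type, and the other mutants overlapped it at the lowest wild-type array. The differences of -0.79 ± 0.23 (adjusted p = 0.126), -1.09 ± 0.23 (adjusted p = 0.0786) and -0.67 ± 0.23 (adjusted p = 0.523) did not pass. Cd52, a short surface glycopeptide of leukocytes, ranged from 4.15 to 4.44.

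The actin regulator Coro1a, which neurons also express, differed in direction from most members. It was measured at 8.51, 8.72, 8.46 and 8.79 in wild-type, 8.64, 9.29, 9.20 and 8.63 in Ptch+/-, 8.97, 8.42, 9.07 and 8.62 in NdpKO GNPs and 9.04, 8.64, 8.53 and 8.83 in NdpKO;Ptch+/- GNPs, with overlap of all groups. Its differences from wild type of 0.32 ± 0.19 (adjusted p = 0.525), 0.15 ± 0.19 (adjusted p = 0.854) and 0.14 ± 0.19 (adjusted p = 0.956) were not called. At a second Coro1a probe (ILMN_2714796), with a wild-type mean of 8.37, the NdpKO;Ptch+/- difference had the opposite sign (-0.05, adjusted p = 0.977). Aif1, which encodes the microglial marker Iba1, ranged from 4.20 to 4.58.

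In the Toll-like receptor system, Ly86 was measured at 5.54, 4.84, 4.98 and 5.71 in wild-type GNPs. It was measured at 4.29, 4.32, 4.22 and 4.61 in Ptch+/-, 4.18, 4.32, 4.29 and 4.27 in NdpKO GNPs and 4.26, 4.24, 4.24 and 4.21 in NdpKO;Ptch+/- GNPs. Every mutant array lay below every wild-type array, and 2 of the wild-type arrays lay below level 5 as well. Ly86 fell by 0.91 ± 0.16 in Ptch+/- (adjusted p = 0.0232), by 1.01 ± 0.16 in NdpKO (adjusted p = 0.0236) and by 1.03 ± 0.16 in NdpKO;Ptch+/- (adjusted p = 0.0469) on the log2 scale, and against level 5 the wild-type level was at least 1.21-fold higher in each case. Without wild-type replicate 4 the calls held (adjusted p = 0.0294, 0.0242 and 0.0340). Without wild-type replicate 1 they were lost (adjusted p = 0.0602, 0.0756 and 0.130), and so they were without Ptch+/- replicate 1, 2 or 3 for Ptch+/- (adjusted p from 0.0647 to 0.0706), without NdpKO replicate 1, 2 or 3 for NdpKO (adjusted p from 0.0576 to 0.106) and without any single mutant array for NdpKO;Ptch+/- (adjusted p from 0.0532 to 0.145). With the array whose labels disagree counted as NdpKO, the NdpKO;Ptch+/- call was lost (adjusted p = 0.0664) and the others held (adjusted p = 0.0284 in Ptch+/- and 0.0315 in NdpKO), and with only the 2 groups fitted all 3 were lost (adjusted p = 0.119, 0.263 and 0.510). Cd14 was measured at 4.33, 4.36, 4.69 and 5.85 in wild type and at most 4.25 elsewhere in GNPs. Unc93b1, which escorts nucleic acid-sensing receptors to endosomes, ranged from 4.15 to 4.35.

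The lysosomal protease gene Ctsz was measured at 7.23, 7.32, 6.67 and 7.15 in wild-type, 7.22, 6.87, 7.17 and 6.98 in Ptch+/-, 6.61, 7.14, 7.29 and 6.83 in NdpKO GNPs and 7.37, 6.50, 6.45 and 6.41 in NdpKO;Ptch+/- GNPs. The groups overlapped, and the differences of -0.03 ± 0.22 (adjusted p = 0.979), -0.12 ± 0.22 (adjusted p = 0.913) and -0.41 ± 0.22 (adjusted p = 0.783) did not pass. Mpeg1, a pore-forming protein of macrophages, ranged from 4.14 to 5.39, its highest value being that of wild-type replicate 3. Cyba, the membrane subunit of NADPH oxidases, was measured at 9.43, 8.90, 8.74 and 9.11 in wild-type, 7.91, 8.34, 8.18 and 8.65 in Ptch+/-, 7.66, 7.83, 7.84 and 8.45 in NdpKO GNPs and 8.16, 8.55, 8.16 and 8.79 in NdpKO;Ptch+/- GNPs. Ptch+/- and NdpKO arrays lay wholly below wild type, and 1 NdpKO;Ptch+/- array overlapped it. The differences were -0.78 ± 0.22 (adjusted p = 0.115), -1.10 ± 0.22 (adjusted p = 0.06) and -0.63 ± 0.22 (adjusted p = 0.526), none past the threshold. NdpKO replicate 4 and NdpKO;Ptch+/- replicate 1 were also left out, a choice made with earlier results of these data known. Laptm5 (adjusted p = 0.0199) and Cyba (adjusted p = 0.0126) then passed as lower in NdpKO GNPs, and 4 members were called there. NdpKO replicate 4 was the highest NdpKO array for both genes (8.83 and 8.45), so leaving it out lowers their NdpKO means. These calls therefore add no weight to the differences, and the share of all probes called was not computed.

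**Figure D2:**
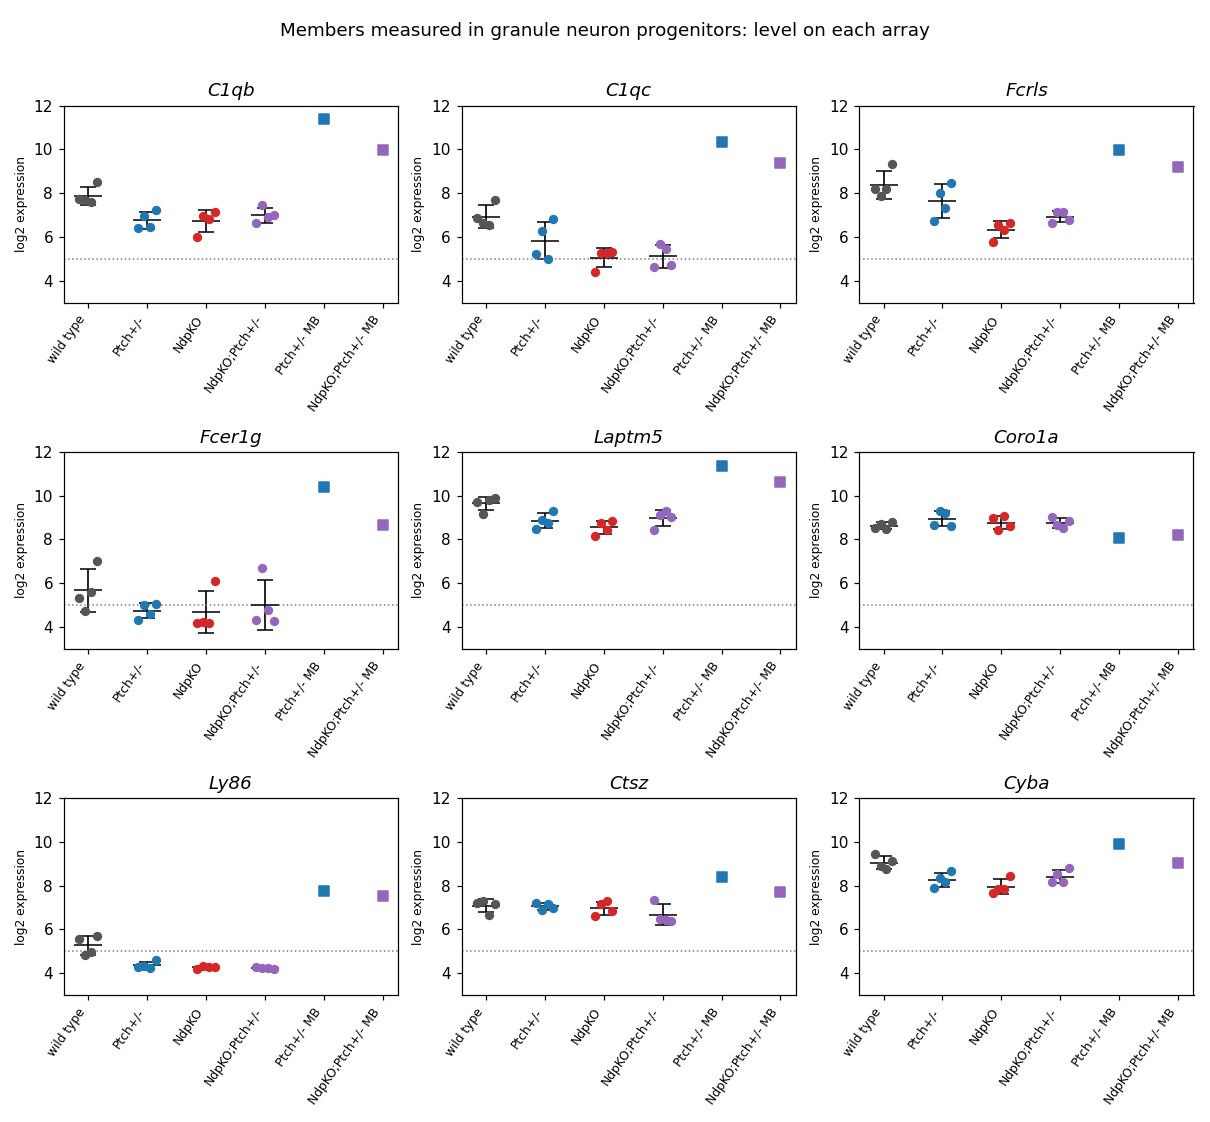
Log2 expression (y axis) of the 9 members measured in GNPs, by group (x axis); each GNP array is a point, its group mean is drawn with an error bar of ± SD (n = 4), single MBs are squares and the dotted line is level 5. The wild-type arrays of C1qb and Ly86 lie above all mutant GNP arrays, and the tumours lie above the GNPs of their genotypes except for Coro1a.

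Loss of Ndp on the Ptch+/- background was addressed next. No member differed between NdpKO;Ptch+/- and Ptch+/- GNPs by the limma test, where 0.0155% of all probes were called. At an unadjusted p below 0.05 stood 0 of 29, where 8.67% of all probes did, and 0 of 29 had groups that did not overlap, against 4.95% of all probes. The smallest adjusted p among the members was 0.623. The sizes were -0.70 ± 0.38 for Fcrls, -0.72 ± 0.41 for C1qc, 0.24 ± 0.29 for C1qb, 0.12 ± 0.23 for Laptm5, -0.13 ± 0.16 for Ly86 and 0.15 ± 0.22 for Cyba, and the median over the members was 0.00. After the same centring that median was 0.42 and 19 members were called, a count that again has no share of all probes beside it. Against NdpKO GNPs, none of 29 was called in NdpKO;Ptch+/- (0.00442% of all probes were), 2 stood at an unadjusted p below 0.05 (5.60% of all probes did), and 1 of 29, Fcgr3 at background, lay wholly higher (2.56% of all probes did not overlap). These 2 were Cyba (0.47 ± 0.22) and Cd53, whose difference of 0.02 ± 0.01 lay at background.

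The interaction tested whether the effect of Ndp loss differs with the Ptch genotype. It was positive for 25 of 29 members with a median of 0.09, and no member passed, where 0.495% of all probes were called. At an unadjusted p below 0.05 stood 6 of 29 (C1qb, Fcrls, Tyrobp, Laptm5, Ly86 and Cyba), where 13.3% of all probes did. After the same centring the median was 0.76 and 27 members were called, also without a share of all probes and with members at background among them. The largest were 1.38 ± 0.41 (adjusted p = 0.144) for C1qb, 1.35 ± 0.54 (adjusted p = 0.283) for Fcrls, 1.25 ± 0.31 (adjusted p = 0.0893) for Cyba and 1.22 ± 0.32 (adjusted p = 0.112) for Laptm5. Without NdpKO replicate 4 and NdpKO;Ptch+/- replicate 1 the interactions of Cyba (1.50, adjusted p = 0.0128) and Laptm5 (1.48, adjusted p = 0.0175) passed. Leaving out the highest NdpKO array of both genes raises their interactions, so these calls add no weight to them.

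The 8 members with a GNP mean of at least 5 were compared for their pattern over the 16 GNP arrays, as a description of arrays that share a platform and a normalization. C1qb, C1qc, Fcrls, Laptm5 and Cyba followed each other, with Pearson's r from 0.75 to 0.94 between pairs and from 0.49 to 0.90 after removal of the genotype means. Fcer1g correlated with those genes at 0.59 to 0.75. Coro1a and Ctsz did not follow them, with r from -0.49 to 0.21. The genes outside the list most like the mean of the 8 members were, of 11888 candidates, 4922502B01Rik (r = 0.88), Gpnmb (0.87), Cebpb (0.87), Pex11a (0.87), Ptpn6 (0.86), Hspa1a (0.85), Cmtm8 (0.85), Cd83 (0.85), C530044C16Rik (0.83) and Pmp22 (0.82). The wild-type mean was the highest of the 4 GNP genotypes for each of these 10 genes. This follows from the choice, since the member mean they were picked to resemble is itself highest in wild type. After removal of the genotype means their r ranged from 0.47 for Pmp22 to 0.85 for Pex11a. The wild-type means of Ptpn6 and Cmtm8 lay below level 5. Gpnmb, a transmembrane glycoprotein of macrophages and other cells, had means of 6.90 in wild-type, 4.95 in Ptch+/-, 4.11 in NdpKO GNPs and 4.12 in NdpKO;Ptch+/- GNPs and reached 11.85 in the Ptch+/- and 10.07 in the NdpKO;Ptch+/- tumour. The heat-shock gene Hspa1a had means of 9.48, 7.68, 6.33 and 6.97 in the same genotypes and lay at 4.13 and 4.10 in the tumours.

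A list of other microglia and macrophage genes, of which 40 of 46 had a probe, held 1 gene called lower against wild type in each mutant. This was Tlr2, the receptor for bacterial lipopeptides, with means of 6.16 in wild-type, 4.42 in Ptch+/-, 4.32 in NdpKO GNPs and 4.50 in NdpKO;Ptch+/- GNPs and differences of -1.74 (adjusted p = 0.00182), -1.84 (adjusted p = 0.00261) and -1.66 (adjusted p = 0.00458). Slco2b1 was the brightest gene of that list, at 9.32 in wild-type GNPs, and no gene of the list was called higher. The ligand genes Csf1, Il34 and Cx3cl1 had no group mean above level 5. All 13 measured genes for monocytes and neutrophils and all 10 for lymphocytes also had group means below 5 throughout, with S100a8 and Zap70 as their brightest genes. Of 10 genes for border-associated macrophages Stab1 alone was above the level in GNPs, at 13.08 in wild type, while Mrc1, Cd163 and Lyve1 were at background there.

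The mean summed level of the members was lower in each mutant than in wild type, and so was that of several other lists. These included the endothelial, mural, astrocyte and Bergmann glia, and oligodendrocyte lists and the other microglia and macrophage genes. The oligodendrocyte mean was 13.79 in wild type and at most 13.52 in a mutant, and the mural mean 10.50 and at most 10.34. The erythroid mean did not fall in every mutant, with 14.63 in NdpKO;Ptch+/- against 14.59 in wild type. The border-associated macrophage mean, 13.11 in wild type, was higher in Ptch+/- (13.27) and NdpKO (13.21) and 13.10 in NdpKO;Ptch+/-. Of its 10 genes only 1, Stab1, stood above level 5 in GNPs. The monocyte and neutrophil mean was 7.83 in wild type and reached 7.92 in NdpKO;Ptch+/-. No gene of that list or of the lymphocyte list reached level 5, so both sums lay at background. The summed linear level of the 29 members, on the log2 scale, ranged from 11.34 to 11.94 in wild-type GNPs, and from 10.79 to 11.35 in Ptch+/-, 10.66 to 10.99 in NdpKO GNPs and 10.93 to 11.15 in NdpKO;Ptch+/- GNPs. That of 15 endothelial genes, of which 11 were above level 5 in wild type, ranged from 13.09 to 14.11, 12.47 to 12.96, 12.39 to 13.30 and 12.63 to 13.65 in the same order. That of 14 astrocyte and Bergmann glia genes, with 11 above the level, ranged from 14.13 to 14.46, 13.40 to 13.71, 13.33 to 14.02 and 13.84 to 14.19. Every wild-type array was above every NdpKO array in the member and glial sums, while a Ptch+/- array reached the lowest wild-type member sum and the endothelial ranges of wild type overlapped those of NdpKO and NdpKO;Ptch+/- GNPs, as did the glial ranges of wild type and NdpKO;Ptch+/-. The erythroid, oligodendrocyte and mural sums of wild type overlapped those of each mutant, with wild-type ranges of 14.14 to 14.94, 13.15 to 14.48 and 10.12 to 10.87 against ranges over the mutants of 13.67 to 15.27, 13.10 to 14.15 and 9.81 to 10.63. In the opposite direction, 15 granule neuron lineage genes summed to 14.78 to 14.80 in wild type and 15.04 to 15.11 in Ptch+/- GNPs, and their lowest array stood at 14.71 in NdpKO;Ptch+/- and their highest at 15.04 in NdpKO GNPs. Of the astrocyte list Sox9 fell in Ptch+/- GNPs (-0.55, adjusted p = 0.0477) and Gfap in NdpKO GNPs (-2.16, adjusted p = 0.0499), of the oligodendrocyte list Pdgfra fell in Ptch+/- GNPs (-0.84, adjusted p = 0.0403), and of the granule lineage Zic2, Zic4, Ccnd2 and Cntn2 rose in Ptch+/- GNPs by 0.37 to 0.76. The part of these cell types in the differences of the members was not tested.

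**Figure D3:**
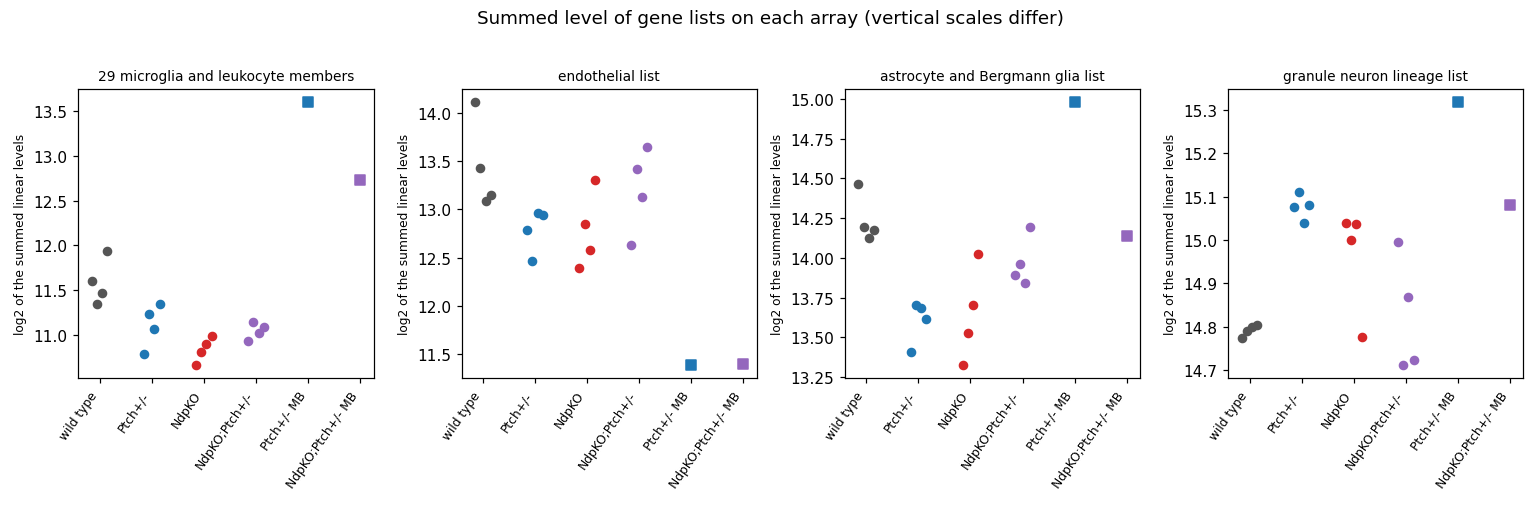
Log2 of the summed linear levels (y axis, with a scale of its own in each panel) of the 29 members and of the endothelial, astrocyte and Bergmann glia, and granule neuron lineage lists on each array, by group (x axis); circles are GNP arrays and squares single MBs. The wild-type arrays lie above NdpKO arrays for the members (11.34 to 11.94 in wild type) and for the glial list, and below Ptch+/- arrays for the granule lineage.

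The comparison of the MBs used the 8 arrays of Ptch+/- and NdpKO;Ptch+/- GNPs as its reference. The members were higher in the tumours: 20 of 29 were called, all of them higher, where 8.61% of all probes were called higher, and their median difference was 1.41 against 0.00 for all probes. Both tumours lay above all 8 GNP arrays for 21 of 29 members (11.3% of all probes) and below them for 2 of 29, Coro1a and Cd14 (11.8% of all probes). In a tumour 18 of 29 members reached level 5. Since the enrichment is described for GNPs alone, preparation and tissue cannot be told apart, and the spread in this fit comes mainly from the GNP arrays. For members at background in these GNPs, such as Trem2, Tyrobp, Ly86, Mpeg1 and Aif1, that spread is compressed. Their SEs and adjusted p-values do not measure the variation between tumours.

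The largest difference was that of Fcer1g, which was measured at 10.40 in the Ptch+/- tumour and 8.67 in the NdpKO;Ptch+/- tumour and rose by 4.66 ± 0.70 on the log2 scale, at least 23.1-fold (adjusted p = 0.00305). Its partner receptor gene Fcgr3 was measured at 5.40 in the Ptch+/- tumour and 5.85 in the NdpKO;Ptch+/- tumour, a difference of 1.41 ± 0.10 (adjusted p = 6.7e-05). Tyrobp was measured at 7.34 in the Ptch+/- tumour and 6.83 in the NdpKO;Ptch+/- tumour and rose by 2.94 ± 0.09, at least 4.25-fold (adjusted p = 3.2e-07). All 3 adaptor and Fc receptor genes thus lay above GNPs in both tumours.

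All C1q chains rose. C1qa was measured at 7.55 in the Ptch+/- tumour and 6.63 in the NdpKO;Ptch+/- tumour, C1qb at 11.37 in the Ptch+/- tumour and 9.96 in the NdpKO;Ptch+/- tumour and C1qc at 10.32 in the Ptch+/- tumour and 9.39 in the NdpKO;Ptch+/- tumour. The differences were 2.94 ± 0.17 (adjusted p = 1.7e-05), 3.79 ± 0.40 (adjusted p = 0.000484) and 4.38 ± 0.49 (adjusted p = 0.00071), which is at least 4.26-fold for C1qa, 13.8-fold for C1qb and 20.8-fold for C1qc.

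Of the surface receptors, Trem2, at background in GNPs, was measured at 8.40 in the Ptch+/- tumour and 8.17 in the NdpKO;Ptch+/- tumour and rose by 4.03 ± 0.06, at least 9.73-fold (adjusted p = 6.0e-09). Csf1r was measured at 6.02 in the Ptch+/- tumour and 6.74 in the NdpKO;Ptch+/- tumour, a difference of 2.00 ± 0.16 (adjusted p = 0.000106). Fcrls, which GNPs already expressed, was measured at 9.95 in the Ptch+/- tumour and 9.20 in the NdpKO;Ptch+/- tumour and rose by 2.30 ± 0.40, 4.92-fold (adjusted p = 0.00652), a call that was lost without either tumour (adjusted p = 0.0620 without the Ptch+/- tumour and 0.0536 without the other). At its dimmer probe Fcrls rose by 3.20 (adjusted p = 2.2e-05). P2ry12 and Tmem119 stayed at background in both tumours.

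Among the general leukocyte and actin-associated genes, Laptm5 was measured at 11.37 in the Ptch+/- tumour and 10.63 in the NdpKO;Ptch+/- tumour and rose by 2.09 ± 0.29, 4.25-fold (adjusted p = 0.00228). Aif1 was measured at 8.52 in the Ptch+/- tumour and 7.38 in the NdpKO;Ptch+/- tumour and rose by 3.69 ± 0.20, at least 7.72-fold (adjusted p = 1.4e-05), and by 4.27 at the probe ILMN_1212938 (adjusted p = 3.2e-07). Cd52 was measured at 7.02 in the Ptch+/- tumour and 4.61 in the NdpKO;Ptch+/- tumour, so that a single tumour exceeded level 5, and its difference of 1.60 ± 0.45 (adjusted p = 0.0532) did not pass. Coro1a was measured at 8.05 in the Ptch+/- tumour and 8.22 in the NdpKO;Ptch+/- tumour, both below all 8 GNP arrays, with a difference of -0.72 ± 0.21 (adjusted p = 0.0675) that was not called. At the Coro1a probe ILMN_2733793 the difference was -1.30 (adjusted p = 0.0992). Cd53 was called, but its difference of 0.10 ± 0.01 lay at background, and Ptprc, Itgam and Lcp1 were at background in both tumours.

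In the Toll-like receptor system Ly86 was measured at 7.77 in the Ptch+/- tumour and 7.55 in the NdpKO;Ptch+/- tumour and rose by 3.36 ± 0.09, at least 6.31-fold (adjusted p = 1.6e-07). Unc93b1 was measured at 6.40 in the Ptch+/- tumour and 5.78 in the NdpKO;Ptch+/- tumour, a difference of 1.89 ± 0.12 (adjusted p = 3.7e-05). Cd14 was at background in both tumours, and so was Tlr7, whose difference of 0.05 ± 0.01 was called. Of the lysosomal genes Mpeg1 was measured at 7.60 in the Ptch+/- tumour and 7.82 in the NdpKO;Ptch+/- tumour and rose by 3.47 ± 0.12, at least 6.55-fold (adjusted p = 8.7e-07). Ctsz was measured at 8.40 in the Ptch+/- tumour and 7.70 in the NdpKO;Ptch+/- tumour, with a rise of 1.18 ± 0.25 (adjusted p = 0.0163) that was lost without the Ptch+/- tumour (adjusted p = 0.163) or the NdpKO;Ptch+/- tumour (adjusted p = 0.0636), and at the probe ILMN_2839569 Ctsz rose by 1.68 (adjusted p = 0.0138). Cyba was measured at 9.91 in the Ptch+/- tumour and 9.05 in the NdpKO;Ptch+/- tumour, with a rise of 1.14 ± 0.28 (adjusted p = 0.0333) that without the Ptch+/- tumour was 0.63 (adjusted p = 0.364); its call was also lost without Ptch+/- replicate 2 or 3, or without NdpKO;Ptch+/- replicate 1 or 3 (adjusted p from 0.0588 to 0.0629). Ctss and Irf8 were called with differences of 0.11 ± 0.01 and 0.05 ± 0.01, both at background, the calls of Tlr7 and Irf8 were lost without several single arrays, and Cybb was not called.

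**Figure D4:**
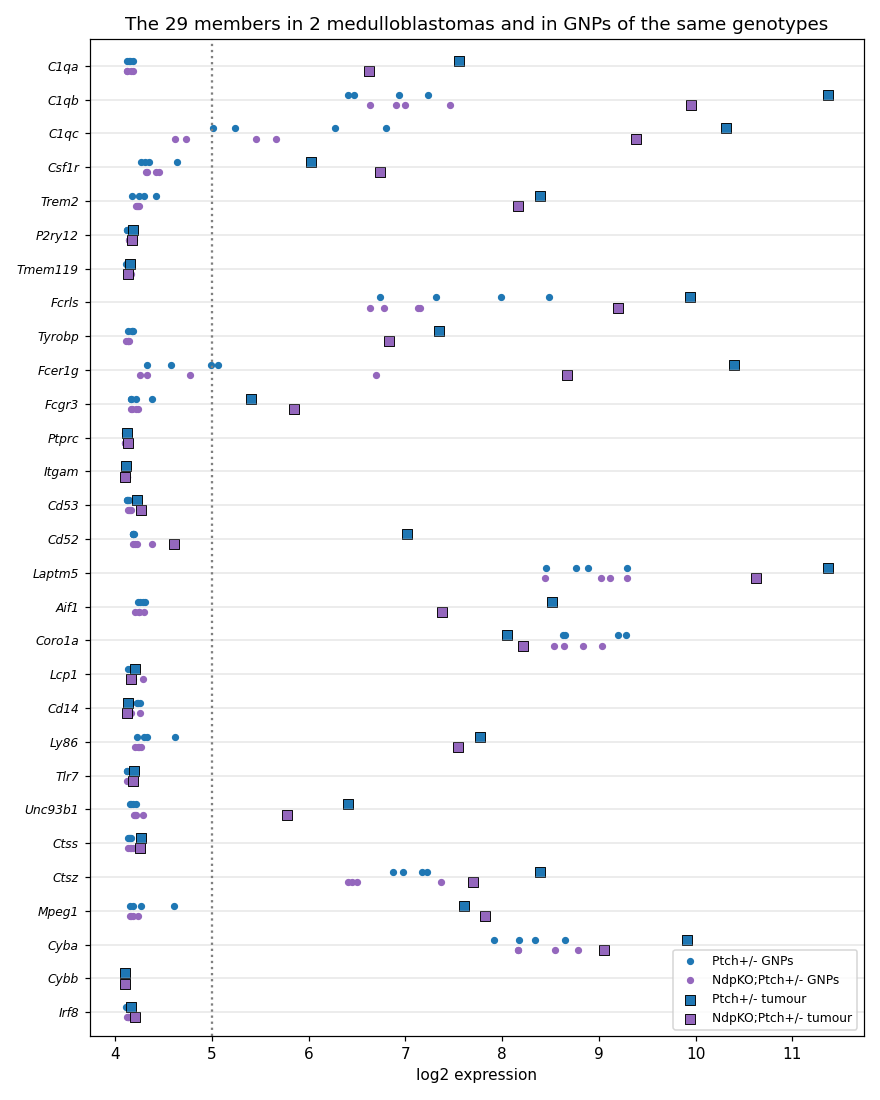
Log2 expression (x axis) of the 29 members (y axis) in the 2 MBs (outlined squares) and on the 8 GNP arrays of the same genotypes (circles), with Ptch+/- in blue, NdpKO;Ptch+/- in violet and a dotted line at level 5. Both squares lie to the right of all circles for 21 members, for example for Trem2, with squares at 8.40 and 8.17, and both lie to the left for Coro1a.

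In the tumours 8.61% of all probes were called higher, and 2745 of the 45281 probes were called lower. The list of other microglia and macrophage genes held 14 of 40 genes called higher there and 1 called lower. Those called higher that reached level 5 in a tumour were the fractalkine receptor gene Cx3cr1 (6.22 in the Ptch+/- and 6.40 in the NdpKO;Ptch+/- tumour), Siglech (5.39 and 6.12), the purinergic receptor genes P2ry13 (6.75 and 5.92) and P2ry6 (5.90 and 5.89), the phosphatase gene Ptpn6 (5.50 and 4.36), Cd84 (5.04 and 4.41), Vav1 (6.37 and 4.46) and Pld4 (4.61 and 5.32). Adgre1, Tlr4, Tlr13, Cd37, Il10ra and Ikzf1 were called higher with tumour levels below 5. Slco2b1 fell by 1.21 (adjusted p = 0.0313). Of the border-associated macrophage genes Ms4a7 rose from background to 8.23 and 8.15 (difference 4.07, adjusted p = 4.4e-12), Folr2 and Clec4n were called with levels below 5, Mrc1 reached 5.73 in the NdpKO;Ptch+/- tumour without a call, and Cd163 and Lyve1 were at background. The monocyte and neutrophil genes and the lymphocyte genes were not called, with 0 of 13 and 0 of 10. Lists this short could hold no call at the shares of all probes, so these counts are no result about those cells. The summed member level was 13.60 in the Ptch+/- and 12.73 in the NdpKO;Ptch+/- tumour, that of the endothelial genes 11.39 and 11.40 and that of the erythroid genes 11.45 and 11.31, where GNP arrays of all genotypes had erythroid sums from 13.67 to 15.27. The part of blood and vessels in the tumour differences was not tested.

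The NdpKO;Ptch+/- tumour was set against the Ptch+/- tumour without a test, since each is a single array. Its value was lower for 22 of 29 members, with a median difference of -0.04 over all 29 and of 0.00 over all probes. The 22 include members at background in both tumours, such as P2ry12 and Tmem119 (both -0.01), whose sign carries no information. Of the 29, 18 reached level 5 in either tumour, and all of these but Csf1r, Fcgr3, Mpeg1 and Coro1a were lower. It was lower by at least 1 on the log2 scale for 4 of 29 members, where 1.79% of all probes were, and higher by at least 1 for 0 of 29, where 1.73% of all probes were. These shares include the many probes at background, none of which differed that much. Of the 11443 probes that reached level 5 in either tumour, 811 were lower and 784 higher by at least 1. The 4 members are among the 18 that reached that level. The 4 were Cd52, at least 4.04-fold lower, Fcer1g, 3.31-fold lower, C1qb, 2.67-fold lower, and Aif1, 2.20-fold lower. C1qa and C1qc were both 1.90-fold lower, Cyba 1.82-fold, Fcrls 1.68-fold and Laptm5 1.67-fold. Trem2 and Ly86 were each lower by at most 0.23 on the log2 scale. The receptors Csf1r (higher by 0.71) and Fcgr3 (higher by 0.45) and the genes Mpeg1 (0.22) and Coro1a (0.16) ran the other way. With 1 array each the spread between tumours of a genotype is not known, and no member is called different between them.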

How the data were processed

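Bead arrays of 18 samples were analysed. The deposited values are log2 intensities that the authors made from BeadStudio outputs in limma by normexp background correction with negative controls (neqc) and quantile normalization, which forces the arrays to 1 distribution. Their number limits the precision, and the p-values treat the arrays of a genotype as separate animals, as the study states. Groups were taken from the sample titles, also for the array whose labels disagree. Of 45281 probes, the platform annotation gives 1 symbol for 34885, several for 18 and none for 10378.

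GNP comparisons were fitted in 1 linear model over the 16 GNP arrays, and the tumour comparison in another over the 2 MBs and the 8 GNP arrays of their genotypes with Ndp genotype as a term, both with limma 3.58.1 in R 4.3.3 (lmFit and eBayes, two-sided), with Benjamini-Hochberg adjustment over all probes and a threshold of 0.05. The script was tested on simulated data. SDs are over n = 4 arrays. A difference is on the log2 scale, and a fold against a group below level 5 is a lower bound set against 5, a level chosen after the data were seen. Named were all 29 members; their other probes where the difference had the opposite sign or differed by more than 0.5; genes of other lists that passed a test, with the brightest gene of each list; and the 10 genes most like the mean of the measured members. Other probes at background are not described singly. The members and lists were chosen with earlier results of these data known. Same-numbered arrays of different genotypes did not deviate together (24 pairs, median correlation -0.04, range -0.34 to 0.47), so a block on the replicate number was fitted only among the alternatives. Further alternatives were other probes, filters, eBayes settings, array weights, centring and left-out arrays.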

Additional observations from a re-analysis of the deposited data

Results flagged for a closer look

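A gene in a GNP genotype was tested for an array far from the others where at least 1 of the 4 arrays reached level 5. Such an array was found in 6 of 37 groups. Fcgr3 and Mpeg1 in wild-type and Fcer1g in NdpKO GNPs were tested only because of the array that stood apart. Several members also follow each other over the same arrays. For both reasons the 6 of 37 cannot be set against a share given by chance. The gap to the nearest array divided by the whole range was 0.851 for C1qb, 0.846 for Fcgr3 and 0.887 for Mpeg1 in wild-type GNPs, with a high array at 8.50, 5.02 and 5.39. It was 0.946 for C1qc in NdpKO GNPs, with a low array at 4.39. It was 0.973 for Fcer1g in NdpKO GNPs and 0.905 for Ctsz in NdpKO;Ptch+/- GNPs, with a high array at 6.11 and 7.37.

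The interaction term of limma passed for genes outside the 29 members and for a second probe of a member, where 0.495% of all probes were called. The interaction was 1.91 ± 0.26 for Tlr2 (adjusted p = 0.0136), 0.85 ± 0.17 for Sox9 (adjusted p = 0.0481) and 1.52 ± 0.24 for Fcrls at the probe ILMN_2831436 (adjusted p = 0.0323). For Tlr2 and for this Fcrls probe the means of all mutant genotypes lay below level 5. A further fall with Ndp loss could not be measured in Ptch+/- GNPs, so the interactions of Tlr2 and Fcrls do not show that its effect differs. It was -0.96 ± 0.14 for Zic2 (adjusted p = 0.0221), -0.76 ± 0.14 for Zic4 (adjusted p = 0.0398), -0.68 ± 0.11 for Ccnd2 (adjusted p = 0.0330) and -0.46 ± 0.09 for Cntn2 (adjusted p = 0.0476).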

How the results depend on the processing

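The numbers of members called among GNPs are small and moved with most settings. The counts after centring are not comparable with the others, since that scaling shifts every probe of an array alike, also at background. Why the other counts moved was not tested. The share of all probes called was not computed for these settings. For Ptch+/- against wild type (1 as reported) 2 were called with the second probe of each gene, 2 among probes at or above the median, 4 with trend and robust eBayes, 0 with only the 2 groups fitted and 28 after centring on the granule neuron lineage list. For NdpKO against wild type (2) there were 5 among probes at or above the median, 6 with trend and robust eBayes, 1 with array weights, 1 when the array whose labels disagree was moved to NdpKO, 0 with only the 2 groups fitted, 6 after centring and 4 without both NdpKO replicate 4 and NdpKO;Ptch+/- replicate 1, which stood apart in earlier results. For NdpKO;Ptch+/- against wild type (1) there were 2 with the second probe and 0 when that array was moved, with only the 2 groups fitted and without both arrays that stood apart. For NdpKO;Ptch+/- against Ptch+/- (0) there were 19 after centring. For the interaction (0) there were 1 with the second probe, 1 among probes at or above the median, 3 with trend and robust eBayes, 27 after centring and 2 without both arrays. For any difference among genotypes (1) there were 2 with the mean of the probes, 2 with the second probe, 5 with trend and robust eBayes, 26 after centring and 3 without both arrays.

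With the replicate number as a block, the calls against wild type numbered 2 in Ptch+/-, 1 in NdpKO GNPs and 0 in NdpKO;Ptch+/-, 0 for any difference among genotypes, and 0 as before in the other GNP comparisons. Leaving out each array in turn gave against wild type 0 to 2 members in Ptch+/-, 0 to 3 in NdpKO GNPs and 0 to 2 in NdpKO;Ptch+/-, and 0 for both other pairs, 0 to 1 for the interaction, 0 to 2 for any difference and 17 to 19 for the tumours. Without both arrays that stood apart, Cyba in the tumours had an adjusted p of 0.0588 and Ly86 in NdpKO;Ptch+/- against wild type 0.0784. The median difference between the tumours was -0.04 as reported and -0.27 after centring. Over 49 results of single members, 1096 alternative values kept direction and call in 948, lost the call in 95, gained it in 52 and reversed in 1, Cd53 in the tumours at its second probe (-0.0011). At level 4.5 there were 13 members above it in a GNP genotype and 18 in a tumour, and at level 6 there were 7 and 17; both levels were chosen after seeing the data. Fits of only 2 groups do not exist for the interaction or for any difference, and the block was not run for the tumours.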

Other observations

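Other lists read beside the 29 members in the tumours gave these calls by limma. Of the erythroid genes Hba-a1, Hbb-bt and Hbb-bs fell, with log2 differences of -3.35 to -3.09. Of the endothelial genes Cldn5, Esam, Ramp2, Egfl7 and Emcn fell and none rose, and of the mural genes Cspg4 and Abcc9 rose, the latter below level 5, and Rgs5 fell. The mural list was led by Vtn. Of the astrocyte and Bergmann glia genes, led by Slc1a3, Gfap, Slc1a2, Apoe, Sox9 and S100b rose, S100b below level 5, and Aqp4, Gja1 and Gdf10 fell. Of the oligodendrocyte lineage, led by Mbp, the progenitor genes Olig1 and Pdgfra rose and the myelin genes Mbp, Mog, Mag, Cnp and Mobp fell. Of the granule neuron lineage, led by Zic1, Barhl1, Ccnd1 and Ccnd2 rose and Zic2, Rbfox3 and Neurod2 fell. Among GNPs the test for any difference called Tlr2, Zic2 and Ccnd2 of these lists.

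The targeted genes were read as well. The Ndp probe lay between 4.10 and 4.13 on every array and gave no information on the knockout. A Ptch1 probe (ILMN_2460224) ranged from 8.56 to 8.70 in wild-type, 7.63 to 7.94 in Ptch+/-, 8.65 to 8.97 in NdpKO and 7.80 to 8.23 in NdpKO;Ptch+/- GNPs. In the single tumours this probe was measured at 8.69 in Ptch+/-, within the wild-type GNP range, and at 7.01 in NdpKO;Ptch+/-, below every GNP array.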
